A study of Homo sapiens with 12 samples.

Results

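The genes described here are the histone genes of the HIST clusters, taken as every gene whose name in the DU145 count table begins with HIST1H, HIST2H, HIST3H or HIST4H and whose biotype there is not a pseudogene. The rule gave 71 of the 57167 genes of that table, after 19 of 90 HIST genes were left out as pseudogenes. The same gene identifiers found 66 members among the 61860 genes of the C4-2 table, and HIST1H3B, HIST1H3C, HIST2H2AA3, HIST2H2AA4 and HIST2H3PS2 were not analysed there. The libraries are bulk RNA sequencing of cells labelled DU145 or C4-2, human prostate cancer lines, given palbociclib or its solvent dimethyl sulfoxide (DMSO). The series asks how CDK4/6 acts on STING signalling with and without RB1. The groups used were DU145 with palbociclib (3 libraries), DU145 with DMSO (3), C4-2 with palbociclib (3) and C4-2 with DMSO (2). The culture medium, RPMI-1640 with 10% serum, was common to all groups. The sources used here do not give the palbociclib dose, its duration or any selection of polyadenylated RNA. Whether the libraries of a group were separate cultures is not stated, and the p-values therefore reflect spread among libraries that may be technical only.

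Histone genes supply the proteins that package DNA. H2A, H2B, H3 and H4 form the nucleosome core, and H1 binds the linker DNA between nucleosomes. Most cluster histone genes are transcribed in S phase, when cyclin E with CDK2 activates the coactivator NPAT, and their messages end in a conserved stem-loop bound by SLBP in place of a poly(A) tail. A few cluster genes also give polyadenylated messages, which are found in cells that are not replicating DNA. Palbociclib blocks CDK4 and CDK6, which phosphorylate the retinoblastoma protein RB1. DU145 is known to lack functional RB1 whereas C4-2, a derivative of LNCaP, has it.

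By class, the 71 members were 6 linker H1, 17 H2A, 18 H2B, 15 H3 and 15 H4 genes. On hg38, 55 HIST1 genes lie on chromosome 6, 34 in a first block (chr6:25726132-26285638) and 21 in a second (chr6:27125897-27893843). The 12 HIST2 genes (chr1:143905556-149887916) and 3 HIST3 genes (chr1:228424845-228460470) lie on chromosome 1, and HIST4H4 lies on chromosome 12 (chr12:14767999-14771131). The table's gene length equalled the GENCODE 29 exon length for all 71, and several of these models, such as that of HIST1H2BK at 381 bases, hold little beyond the coding sequence.

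The stem-loop is shown because it separates the usual histone message from one that runs on past it. It was searched for in GENCODE 29 transcripts, on the transcribed strand, and was found in a model of 32 of 71 members (45.07%), against 298 of 19613 other protein-coding genes (1.519%). The match has 6 distinct sequences among the members, with the paired stem in capitals and the loop in lower case. They stand below for 17, 5, 5, 3, 1 and 1 members in that order, named by a member that carries each.
HIST3H2A: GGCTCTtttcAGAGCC
HIST1H4H: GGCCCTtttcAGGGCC
HIST1H2BD: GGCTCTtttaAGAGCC
HIST1H4I: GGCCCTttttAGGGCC
HIST1H3E: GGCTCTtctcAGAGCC
HIST1H2AG: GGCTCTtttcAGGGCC

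The first form is carried by HIST3H2A and HIST3H2BB alike, and by HIST1H2AC and HIST1H2BN. In 9 members every model that holds the stem-loop ends within 100 bases of it. In 23 at least 1 model runs further, and in 39 no model contains it. HIST1H2BD, among the 9 and with 1493 counts in DU145, also has a model without the stem-loop. Members whose models run past it held 54.117% of the summed DU145 counts of the members, those whose models end there 6.653%, and those with no stem-loop in the model 39.229%. Reads that lie beyond a short model are not counted for it, so these shares also follow the annotation.

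Promoters of 66 of 71 members were matched in RefSeq (GRCh38.p14), each 250 bases before to 50 after the start. The 3 shown belong to the head-to-head HIST3 pair, to the member with the largest called difference in change between the lines, and to the most abundant member. Capitals mark TATAAA (the TATA box), CCAAT and ATTTGCAT (the octamer), each on either strand, so that CCAAT also appears as ATTGG, ATTTGCAT as ATGCAAAT and TATAAA as TTTATA, and the last may overlap TATAAA.
HIST3H2BB, chr1:228457853-228458152, plus strand: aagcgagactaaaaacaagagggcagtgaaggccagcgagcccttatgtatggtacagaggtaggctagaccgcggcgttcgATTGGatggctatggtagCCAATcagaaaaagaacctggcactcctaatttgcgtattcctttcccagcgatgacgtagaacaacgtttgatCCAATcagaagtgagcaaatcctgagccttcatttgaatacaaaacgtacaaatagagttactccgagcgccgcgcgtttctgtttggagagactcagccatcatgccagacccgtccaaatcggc
HIST1H2AC, chr6:26123922-26124221, plus strand: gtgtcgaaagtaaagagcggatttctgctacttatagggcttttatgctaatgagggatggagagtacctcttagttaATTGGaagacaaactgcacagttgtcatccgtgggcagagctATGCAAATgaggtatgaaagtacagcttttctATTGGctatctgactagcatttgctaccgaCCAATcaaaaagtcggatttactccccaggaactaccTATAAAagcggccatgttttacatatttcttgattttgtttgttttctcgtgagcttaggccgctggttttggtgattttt
HIST1H2BK, chr6:27146809-27147108, minus strand: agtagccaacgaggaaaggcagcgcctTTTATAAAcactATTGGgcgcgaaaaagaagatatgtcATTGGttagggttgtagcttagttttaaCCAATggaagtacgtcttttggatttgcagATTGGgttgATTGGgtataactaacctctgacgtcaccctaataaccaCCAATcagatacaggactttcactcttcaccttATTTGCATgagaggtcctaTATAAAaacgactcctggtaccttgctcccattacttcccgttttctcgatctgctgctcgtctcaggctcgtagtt

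TATAAA was in 66.667% of the 66 matched promoters, against 11.53% of all 35116 promoters of the same length. CCAAT was in 84.848% against 34.614%, in every matched H1, H2A, H2B and H3 promoter and in 3 of 13 H4 promoters. HIST1H2AD and HIST1H3D were matched to the same window (chr6:26199244-26199543), which is therefore counted under both H2A and H3. The octamer was in 39.394% against 1.774%, in 11 of 16 H2A and 14 of 18 H2B promoters. The HIST3H2BB window, which also contains the HIST3H2A start, held 3 CCAAT matches and neither TATAAA nor the octamer. These matches are descriptions of the letters and were not tied to factor binding.

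Depth set how much could be seen. DU145 libraries held 16108999 to 16674393 counts and C4-2 libraries 2608851 to 3489659, so that a 0 in 1 library allows up to 0.18 to 0.186 CPM (counts scaled to a library total of 1000000) in DU145 and up to 0.86 to 1.15 CPM in C4-2, taking 3 counts as the limit and covering counting error only. One labelled C4-2 DMSO library (replicate 3) held 0 counts throughout and was left out. Of 8 luminal prostate markers, 6 were below 1 CPM in the C4-2 libraries and KLK3, KLK2, FOLH1 and ACP3 were at 0 in all 5, so the line is called by its label. Among 6 epithelial markers in DU145, KRT8 (1524 CPM), KRT7 (691 CPM) and KRT18 (524 CPM) were high, CDH1 stood at 1.5 ± 0.601 CPM (SD, n = 6), and EPCAM and KRT19 were below 1 CPM. In DU145, libraries numbered 3 stood further from the others of their group than those did from each other, with a chi-square per degree of freedom of 5.41 to 8.34 against 2.36 to 2.37, where 1 is counting noise.

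In DU145, 63 members had at least 1 count and 8 had none, with 45856 counts in all. HIST1H2BK alone held 20.67% of them, the top 5 members 57.13% and the top 10 members 78.74%. In the C4-2 table, 43 of the 66 members had at least 1 count, 23 had none, 11 had at least 10 counts over the 5 libraries and 5 had at least 100. The members summed to 1263 counts there, of which HIST3H2A held 30.88% and the top 5 members 81.39%.

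The gap in level between the tables was larger for the members than for other genes. Of 28 members with at least 1 CPM in DU145 DMSO libraries, 8 (28.571%) reached 1 CPM in C4-2 DMSO libraries, against 89.976% of 11852 other protein-coding genes and 3 of 4 other coding genes within the HIST1 spans. The neighbour that did not was AL031777.3, which shares 411 exon bases with HIST1H3D and 385 with HIST1H2AD on the same strand. HIST1H4I, an H4 gene, had 759, 738 and 637 counts with palbociclib and 485, 483 and 478 counts with DMSO in DU145, but 1 count in total over the 5 C4-2 libraries. HIST1H2AG had 3441 counts in DU145 and 2 in C4-2. HIST3H2A went the other way, with a mean of 19.0 CPM in DU145 DMSO libraries and 33.5 CPM in C4-2 DMSO libraries. Over all 66 members, 54 had the lower mean in C4-2 and 3 the higher. The line, the annotation and the counting differ between the tables and cannot be told apart as sources of this gap.

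**Figure D1:**
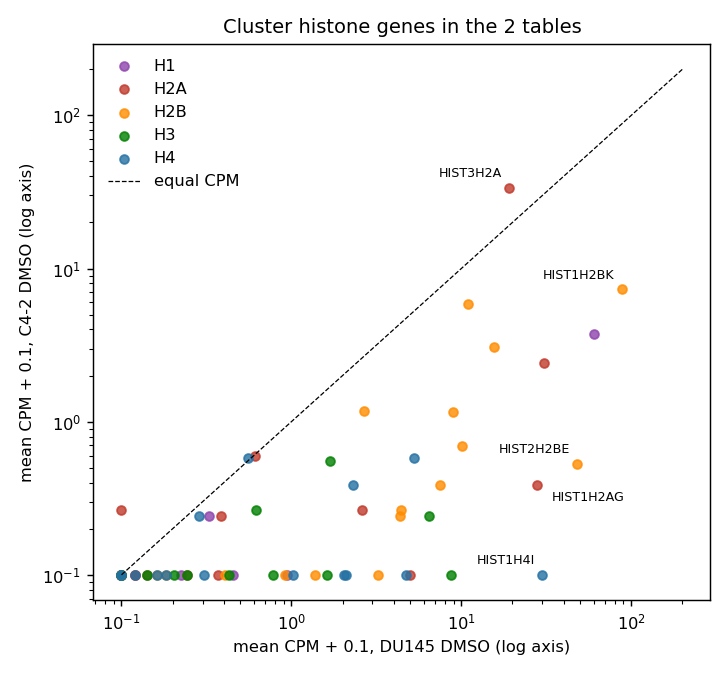
Mean CPM plus 0.1 of the 66 members found in both tables, DU145 DMSO libraries on the x axis (n = 3) and C4-2 DMSO libraries on the y axis (n = 2), both on log axes, coloured by histone class; the dashed line marks equal CPM. HIST3H2A lies above the line at 33.5 CPM in C4-2, and most members lie well below it, HIST1H4I among those at 0 in C4-2.

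In DU145, the cluster histone genes held a larger share of the library counts with palbociclib than with DMSO. The members summed to 525, 491 and 506 CPM with palbociclib (507 ± 17.1, SD, n = 3), against 425, 433 and 414 CPM with DMSO (424 ± 9.50, n = 3). The groups did not overlap. H3 genes summed to 37.3 ± 1.61 CPM with palbociclib and 22.0 ± 2.84 CPM with DMSO. H2A genes summed to 128 ± 2.19 and 86.9 ± 3.14 CPM, H4 genes to 60.4 ± 5.65 and 47.6 ± 4.29 CPM, and H2B genes to 228 ± 12.3 and 206 ± 6.55 CPM, each with palbociclib before DMSO. The class H1 was the exception, with 53.7 ± 4.33 CPM under palbociclib and 62.0 ± 1.26 CPM under DMSO. Nearly all of that sum was HIST1H1C, at a mean of 52.1 CPM with palbociclib and 60.5 CPM with DMSO. The H1 sum therefore describes that gene and not the linker class as a whole. A sum over members carries no test here. In bulk RNA, a change in the share of cells in S phase and a change in the amount of transcript per cell cannot be told apart. The sum also depends on which message forms the libraries and the annotated models capture, and this was not tested.

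In C4-2 the sum was 92.4, 101 and 95.6 CPM with palbociclib (96.4 ± 4.45, n = 3), against 65.3 and 60.0 CPM with DMSO (62.7 ± 3.76, n = 2), again without overlap. H2B genes had the widest gap, at 49.1 ± 3.98 CPM under palbociclib, against 19.7 ± 2.54 CPM under DMSO. H2A genes stood at 35.0 ± 4.93 CPM under palbociclib, against 37.1 ± 2.27 CPM under DMSO, within their spread. H1 (4.88 against 3.75 CPM), H3 (2.95 against 0.762 CPM) and H4 (4.45 against 1.38 CPM) genes rested on few counts.

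**Figure D2:**
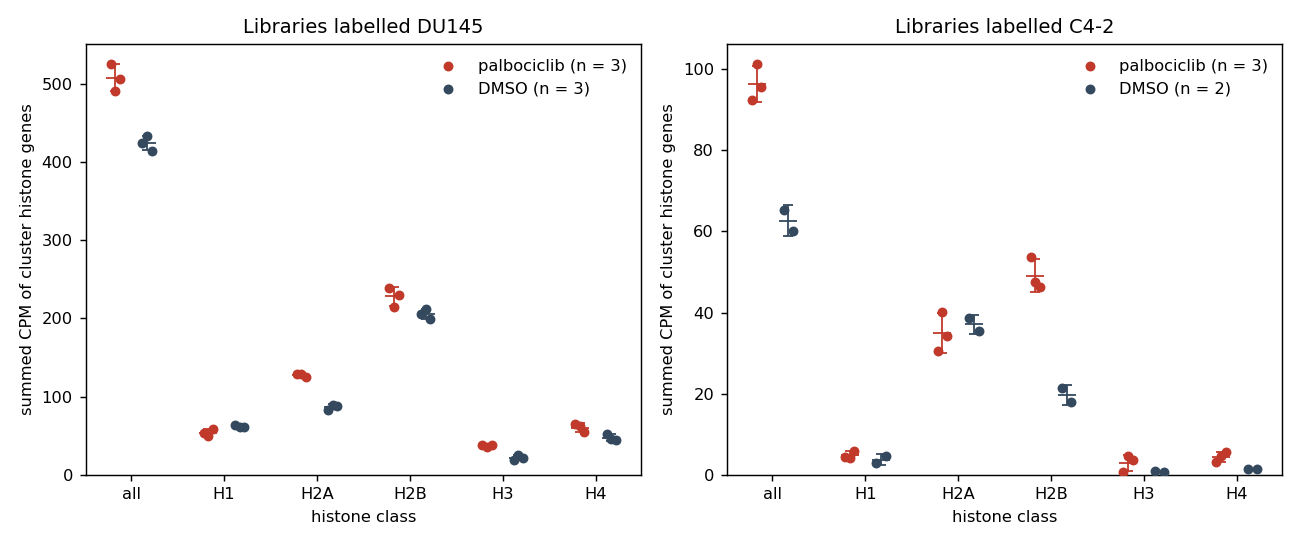
Summed CPM of the cluster histone genes for all members and by class, in DU145 (left panel) and C4-2 (right panel, with its own scale), palbociclib left of DMSO; points are libraries, horizontal marks the mean and bars the SD. The sum over all members is higher with palbociclib in both panels, at 507 against 424 CPM in DU145 and 96.4 against 62.7 CPM in C4-2.

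A gene is called here when its Benjamini-Hochberg adjusted p over all tested genes, from the quasi-likelihood F test of edgeR, is under 0.05. In DU145, 37 of 71 members passed the filter on low counts and 25 were called, 20 higher and 5 lower with palbociclib. The background was wide, since 58.1% of all 15361 tested genes were called, 28.8% higher and 29.2% lower. The share of members called at all was therefore near that of all genes, while the calls fell mostly on the higher side. Of those called higher, HIST1H2AH, HIST1H4C, HIST2H2AA3 and HIST2H2AA4 passed the filter only through their palbociclib libraries. Of those called lower, HIST2H4A passed only through its DMSO libraries. The filter favoured the called direction for these genes. The median log2 fold change of the tested members was 0.42, against -0.0074 for all tested genes. The values of palbociclib and DMSO libraries did not overlap for 22 members in the higher and 4 in the lower direction, against 62.7% of all tested genes without overlap.

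By class, 7 of 8 tested H2A genes, 4 of 6 H3 genes, 4 of 8 H4 genes and 5 of 13 H2B genes rose. No H1 gene did, and 28.8% of all tested genes rose. The H2A rises include HIST1H2AH and the near-identical copies HIST2H2AA3 and HIST2H2AA4, and the H4 rises include HIST1H4C. These genes passed the filter only through their palbociclib libraries, so the class and block counts carry that limit. The members that fell were the linker gene HIST1H1C, the H2B genes HIST2H2BE and HIST3H2BB, and the H4 copies HIST2H4A and HIST2H4B. By place, all 11 tested genes of the second HIST1 block rose (median 0.71 in log2). In the first block 6 of 16 rose and 1 fell, and in HIST2 2 of 7 rose and 3 fell. Among the 21 tested members whose models run past the stem-loop, 8 rose and 4 fell. Among the 5 whose models with the stem-loop end at it, HIST1H2BD included, 4 rose and 0 fell. Those 4 were HIST1H2AE, HIST1H2AI and the copies HIST2H2AA3 and HIST2H2AA4, which carry the filter limit. Among the 11 with no stem-loop in the model 8 rose and 1 fell. Whether the change goes with the form of the model was not tested. Of the 17 members with a matched promoter that rose, 6 held the octamer, as did 1 of 5 that fell and 6 of 12 tested but not called.

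**Figure D3:**
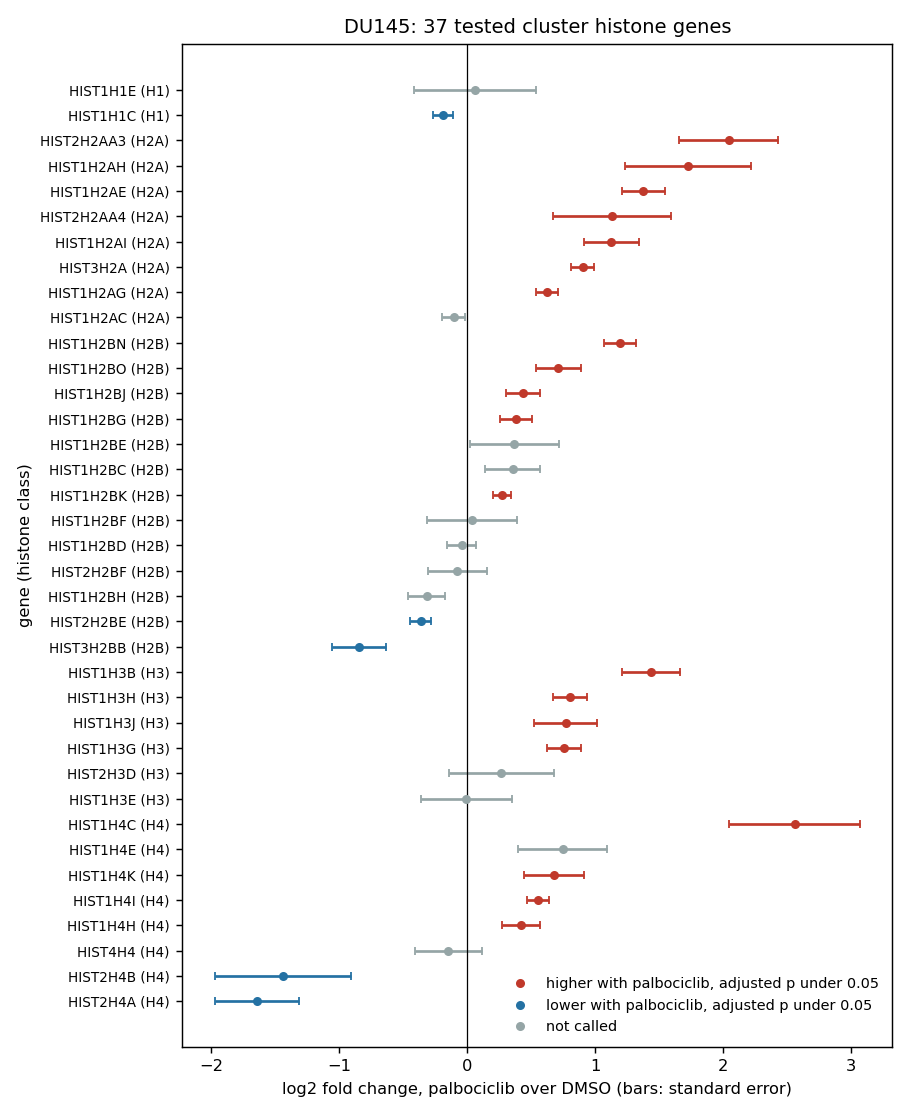
Log2 fold change in DU145, palbociclib over DMSO, of the 37 tested members, grouped by histone class from H1 at the top to H4, with the standard error as bars (3 libraries a group). Red points were called higher (20), blue points lower (5) and grey points not called (12), and the rises run through H2A and H3.

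Among H2A genes, HIST1H2AE (chr6:26216975-26217483) had 11.1, 14.3 and 12.3 CPM with palbociclib, against 4.16, 4.27 and 6.28 CPM with DMSO. It rose by 1.38 on the log2 scale (SE 0.17, adjusted p = 1.5e-06), with every palbociclib library above every DMSO library. HIST1H2AI had 5.31, 4.49 and 6.36 CPM with palbociclib and 1.80, 2.97 and 2.74 CPM with DMSO (log2 fold change 1.13, SE 0.22). Those groups did not overlap either, but 60.14% of its 75-base windows are shared with HIST1H2AJ, so its reads may be split between the copies. HIST1H2AC, at 28.2, 30.0 and 25.4 CPM with palbociclib and 31.0, 30.5 and 29.9 CPM with DMSO, was not called in DU145 (-0.10, SE 0.09, adjusted p = 0.333).

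HIST2H2AA3 and HIST2H2AA4 encode the same H2A and are near-identical copies, sharing 100% and 96.94% of their windows, so only their sum is read. Together they had 48, 50 and 52 counts with palbociclib, against 10, 20 and 19 counts with DMSO. The groups did not overlap. Fitted apart, HIST2H2AA3 rose by 2.04 in log2 (SE 0.39) and HIST2H2AA4 by 1.13, a call lost in 6 settings (adjusted p up to 0.206).

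Among H3 genes, HIST1H3B (chr6:26031650-26032060) had 5.37, 5.28 and 4.80 CPM with palbociclib and 1.43, 1.73 and 2.62 CPM with DMSO. It rose by 1.43 (SE 0.22, adjusted p = 2.95e-05) without overlap. HIST1H3H had 13.9, 14.5 and 15.8 CPM with palbociclib, against 6.89, 10.2 and 8.72 CPM with DMSO (log2 fold change 0.80, SE 0.14). The lower-level HIST1H3J had 2.78, 2.30 and 2.58 CPM with palbociclib, against 1.61, 1.55 and 1.40 CPM with DMSO (0.77, SE 0.25). All 3 were higher in every palbociclib library than in any DMSO library, though HIST1H3J was not called without the libraries numbered 3 (adjusted p = 0.0519) and shares 346 exon bases with HIST1H2AM on the same strand.

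Among H4 genes, HIST1H4I (chr6:27138588-27139881) was the most abundant, at 45.8, 44.8 and 38.2 CPM with palbociclib and 30.1, 29.9 and 29.2 CPM with DMSO. It rose by 0.55 (SE 0.09, adjusted p = 3.16e-05), and the groups lay well apart. HIST1H4H had 6.76, 6.55 and 7.08 CPM with palbociclib and 5.09, 5.02 and 5.37 CPM with DMSO, a rise of 0.42 (SE 0.15, adjusted p = 0.0196) whose call was lost in 5 settings. These were without DMSO replicate 1, DMSO replicate 2, palbociclib replicate 3 or both libraries numbered 3 (adjusted p = 0.0544, 0.06, 0.0524 and 0.0515) and without a filter (0.0582). HIST1H4C rose by 2.56 (SE 0.51) from low numbers, with 19, 22 and 14 counts under palbociclib and 5, 3 and 1 counts under DMSO. HIST1H4K rose by 0.68 (SE 0.23, adjusted p = 0.0194), but all of its windows also occur in HIST1H4J, and the call was lost in 3 settings (adjusted p up to 0.0957).

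HIST2H4A and HIST2H4B are near-identical copies, sharing 96.21% and 97.14% of their windows, and each overlaps an H3 gene on the opposite strand by 173 bases. HIST2H4A had 9, 11 and 11 counts with palbociclib and 29, 40 and 28 counts with DMSO, and fell by 1.64 (SE 0.33). HIST2H4B had 57, 14 and 12 counts with palbociclib and 145, 24 and 55 counts with DMSO, with replicate 1 of each group far above the others. Its log2 fold change of -1.44 (SE 0.53, adjusted p = 0.0275) was -0.53 (adjusted p = 0.401) without DMSO replicate 1, and it was also not called without palbociclib replicate 2 or 3 (adjusted p = 0.0981 and 0.0544) or by DESeq2 (0.21). Summed over both copies, the groups overlapped, at 66, 25 and 23 counts with palbociclib and 174, 64 and 83 counts with DMSO.

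Among H2B genes, HIST1H2BK (chr6:27146418-27146798) was the most abundant member, and it also led per length, at 252.6 CPM per kilobase. It had 103, 98.4 and 112 CPM with palbociclib, against 86.0, 89.9 and 88.3 CPM with DMSO. The rise was small, 0.27 in log2 (SE 0.07, adjusted p = 0.00328), but no library overlapped. HIST1H2BN (chr6:27837760-27865798) rose more, by 1.19 (SE 0.12, adjusted p = 2.36e-07). It had 29.2, 22.7 and 21.2 CPM with palbociclib and 11.1, 10.5 and 10.9 CPM with DMSO, so that the lowest palbociclib library stood well above the highest DMSO library. Its model of 5477 exon bases covers all 393 bases of HIST1H2AK on the opposite strand. HIST2H2BE, with 40.4, 33.5 and 36.2 CPM with palbociclib and 49.5, 49.4 and 45.3 CPM with DMSO, fell by 0.36 (SE 0.08, adjusted p = 0.00134) without overlap.

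The linker gene HIST1H1C (chr6:26055787-26056428) had 52.2, 47.6 and 56.6 CPM with palbociclib and 61.6, 59.6 and 60.2 CPM with DMSO. No library overlapped, and the fall of 0.19 (SE 0.08) was just past the threshold (adjusted p = 0.0484). The call was lost with RLE scaling (adjusted p = 0.061), with DESeq2 (0.0763) and without any 1 library other than palbociclib replicate 3, at adjusted p values of 0.0686 to 0.287. HIST1H1C was second in level per length, at 87.7 CPM per kilobase, ahead of HIST3H2A at 30.1, HIST1H4I at 28.1, HIST2H2BE at 19.3 and HIST1H2AC at 17.5 CPM per kilobase.

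HIST3H2A (chr1:228456979-228457873) and HIST3H2BB (chr1:228458107-228460470) encode an H2A and an H2B from start sites 234 bases apart, transcribed away from each other through the window printed above. They moved in opposite directions in DU145. HIST3H2A had 33.9, 34.5 and 36.3 CPM with palbociclib and 17.8, 19.6 and 19.6 CPM with DMSO, a rise of 0.90 (SE 0.09, adjusted p = 1.77e-07). HIST3H2BB had 2.23, 2.49 and 2.40 CPM with palbociclib and 3.85, 5.39 and 3.78 CPM with DMSO, and fell by 0.84 (SE 0.21, adjusted p = 0.0023). The ratio of HIST3H2A to HIST3H2BB counts was 15.2, 13.9 and 15.1 with palbociclib (14.7 ± 0.745, SD, n = 3) and 4.61, 3.63 and 5.18 with DMSO (4.47 ± 0.782, n = 3). The groups did not overlap for either gene.

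In all, 12 pairs of members were transcribed away from each other from starts within 1000 bases, and in 6 both genes were tested in DU145. In 4 of these both genes rose, namely HIST1H2BG with HIST1H2AE (0.38 and 1.38), HIST1H2BJ with HIST1H2AG (0.44 and 0.62), HIST1H2BK with HIST1H2AH (0.27 and 1.72) and HIST1H3J with HIST1H2BO (0.77 and 0.71). The calls of HIST1H2BG and HIST1H2BJ were each lost in 3 settings and that of HIST1H2AH in 1, at adjusted p values of 0.05 to 0.0654. Neither HIST1H2BC (0.36) nor HIST1H2AC (-0.10) was called. HIST2H2BE fell beside HIST2H2AC, which had 46 counts in all and was not tested. The HIST3 pair was the only one of the 6 with calls in opposite directions.

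**Figure D4:**
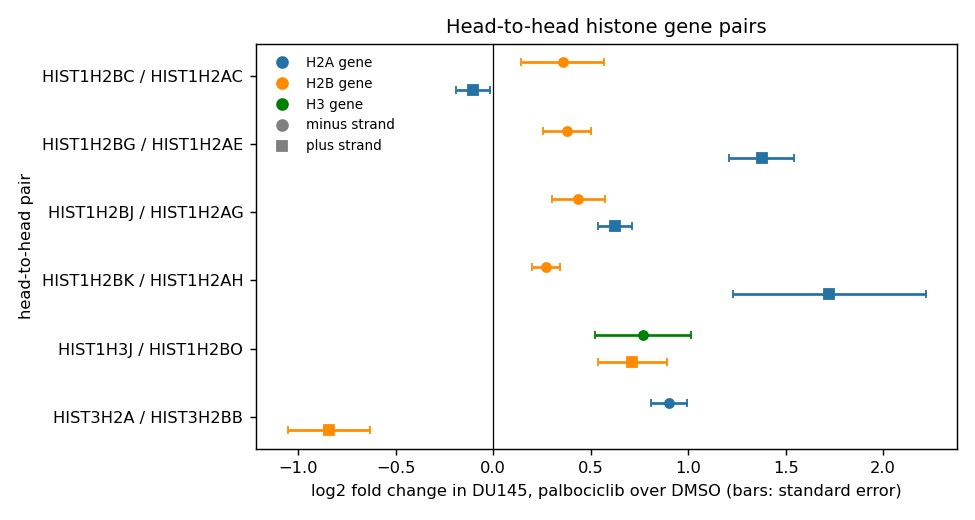
Log2 fold change in DU145, palbociclib over DMSO, for the 6 head-to-head pairs with both genes tested, with standard errors as bars; circles are the minus-strand gene, squares the plus-strand gene, and colours mark H2A, H2B and H3 genes. Only the HIST3 pair, at 0.90 and -0.84, has calls on both sides of 0.

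In C4-2, only 6 members passed the filter and 5 were called, 4 higher and 1 lower, where 51.8% of all 11943 tested genes were called, 25.2% higher and 26.6% lower. The 6 were HIST1H1C, HIST1H2AC, HIST1H2BD, HIST1H2BK, HIST1H2BN and HIST3H2A, and no H3 or H4 gene could be tested. Their median log2 fold change was 1.20, against 0.0015 for all tested genes. HIST1H2AC (2.01 and 2.65 CPM with DMSO) and HIST1H2BD (2.29 and 3.65 CPM) passed the filter only through their palbociclib libraries. The filter therefore favoured rises for these genes, and the count of rises and the median carry that limit. Tested without a filter, 7 of 43 members were called, beside 5974 of all 26571 genes, so the share of members was not above that of all genes.

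HIST1H2AC (chr6:26124145-26139116) had 35, 45 and 50 counts with palbociclib in C4-2, against 7 and 8 counts with DMSO, or 12.1, 17.2 and 14.8 CPM against 2.01 and 2.65 CPM. It rose by 2.6 in log2 (SE 0.31, adjusted p = 2.77e-09), and every palbociclib library lay far above both DMSO libraries. HIST1H2BN had 70, 51 and 71 counts with palbociclib and 23 and 15 counts with DMSO, a rise of 1.84 (SE 0.23, adjusted p = 4.07e-09). HIST1H2BD (chr6:26158146-26171349) had 25, 24 and 36 counts with palbociclib and 8 and 11 counts with DMSO, a rise of 1.65 (SE 0.33, adjusted p = 5.19e-05). Neither gene's groups overlapped. HIST1H2BK had 37, 37 and 38 counts with palbociclib and 26 and 21 counts with DMSO. It rose by 0.76 (SE 0.24, adjusted p = 0.00787) but was not called by DESeq2 (adjusted p = 0.103).

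HIST3H2A was the member that fell in C4-2, with 52, 57 and 62 counts with palbociclib and 125 and 94 counts with DMSO, or 18.0, 21.8 and 18.4 CPM against 35.8 and 31.2 CPM. The fall of 0.85 (SE 0.15, adjusted p = 4.52e-06) left the groups well apart. HIST3H2BB had 1, 0 and 0 counts with palbociclib and 0 and 1 counts with DMSO, so the pair could not be compared there. HIST1H1C, with 12, 9 and 19 counts under palbociclib and 9 and 14 counts under DMSO, overlapped between the groups and was not called (0.30, SE 0.39, adjusted p = 0.553).

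The difference between the lines was tested as the DU145 change minus the C4-2 change. Of 36 members tested, 4 were called, 1 higher and 3 lower, where 33.4% of 18139 tested genes were called, 18.4% higher and 15.0% lower. HIST3H2A, higher with palbociclib in DU145 and lower in C4-2, differed by 1.78 (SE 0.18, adjusted p = 1.38e-09). HIST1H2AC differed by -2.69 (SE 0.32, adjusted p = 4.49e-08) and HIST1H2BD by -1.67 (SE 0.35, adjusted p = 0.000251). HIST1H2BD had 14.5, 16.1 and 13.9 CPM with palbociclib and 16.3, 16.8 and 13.5 CPM with DMSO in DU145, where it was not called (-0.04, adjusted p = 0.759). HIST1H4H differed by -2.02 (SE 0.70, adjusted p = 0.025), from 5, 10 and 9 counts with palbociclib and 1 and 2 counts with DMSO in C4-2. Its call was lost under DESeq2 (adjusted p = 0.0643) and without a filter (0.0547). It was also lost without C4-2 DMSO replicate 1 (0.241) and without C4-2 palbociclib replicate 2 (0.0879). HIST1H2BN (-0.61, SE 0.29, adjusted p = 0.106), HIST1H2BK (-0.46, SE 0.24, adjusted p = 0.154) and HIST1H1C (-0.46, SE 0.37, adjusted p = 0.388) did not pass, which does not show equal changes. HIST1H2BN passed without DU145 palbociclib replicate 1 (-0.77, adjusted p = 0.0225), and the HIST1H1C difference ran from -0.89 to -0.07 as single libraries were left out. Most other members had too few C4-2 counts for a fold change to be read.

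**Figure D5:**
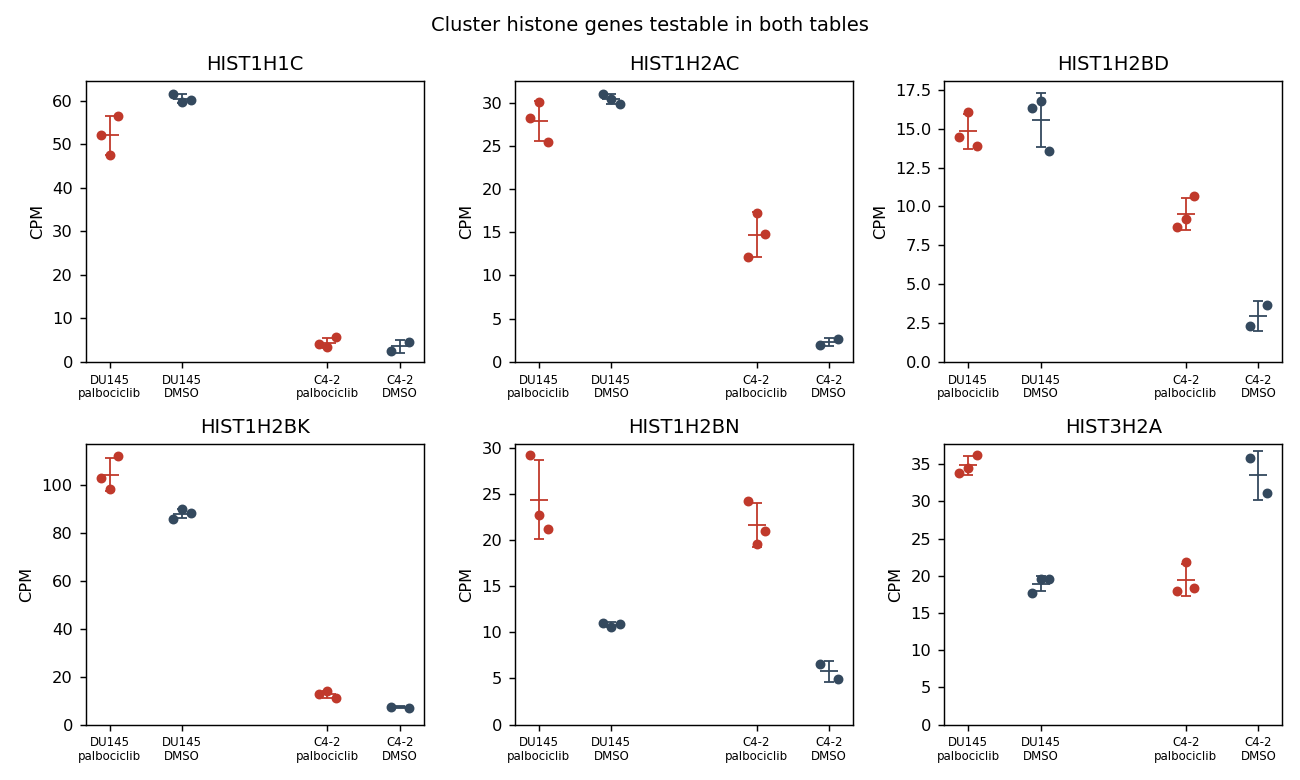
CPM of the 6 members tested in both tables, by library, with palbociclib left of DMSO for DU145 (n = 3 and 3) and then C4-2 (n = 3 and 2); horizontal marks are means and bars the SD. HIST3H2A is higher with palbociclib in DU145 and lower in C4-2, and HIST1H2AC and HIST1H2BD are higher with palbociclib in C4-2 and overlap between the groups in DU145.

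Members known to give polyadenylated messages (HIST1H1C, HIST1H2AC, HIST1H2BC, HIST1H2BD, HIST1H2BK and HIST2H2BE) were taken as a list. In DU145 all 6 were tested, 1 rose (HIST1H2BK) and 2 fell (HIST1H1C and HIST2H2BE), beside 28.8% and 29.2% of all tested genes. The median log2 fold change of the list was -0.07. In C4-2 4 were tested and 3 rose (HIST1H2AC, HIST1H2BD and HIST1H2BK), beside 25.2% of all tested genes. The median was 1.20, with the limit from the filter given above for HIST1H2AC and HIST1H2BD. In total, 4 of the 6 members that could be tested in C4-2 belong to this list. The list was written with earlier results of these data known, so this overlap is a description only.

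All 16 tested S-phase markers fell in C4-2, where 26.6% of all tested genes fell. Their median was -1.97, and 4 of 6 histone members rose, with the limit from the filter given above. The markers included RRM2, a ribonucleotide reductase subunit, at 43.6 ± 4.09 CPM under palbociclib, n = 3, against 305.0 ± 14.0 CPM under DMSO, n = 2, and MCM7 of the replicative helicase (-2.11). The list summed to 836 to 846 CPM with palbociclib and 3044 to 3045 CPM with DMSO. In DU145 it summed to 3955 to 4017 CPM with palbociclib and 3897 to 3999 CPM with DMSO, which overlapped. There, 4 of 16 rose and 7 fell, beside 28.8% and 29.2% of all tested genes, with a median of -0.07, among them MCM2 (0.40) and POLA1 (-0.46), the catalytic subunit of DNA polymerase alpha. Their part in the histone changes was not tested.

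Of 26 genes that transcribe and process histone messages, 13 fell and 2 rose in C4-2, where 26.6% of all tested genes fell and 25.2% rose, and their median was -0.31. SLBP, which binds the stem-loops printed above, had 58.4 ± 1.58 CPM under palbociclib (n = 3), against 92.3 ± 4.51 CPM with DMSO (n = 2), a fall of 0.70. In DU145 it rose by 0.39 (adjusted p = 4.88e-05), and the change in DU145 minus that in C4-2 was 1.13 (SE 0.11, adjusted p = 1.21e-09). CDK2 fell in C4-2 (-1.22) and rose in DU145 (0.41, adjusted p = 2.41e-05), a difference of 1.66 (SE 0.13, adjusted p = 9.43e-12). Its partner cyclin E2 (CCNE2, -3.03) and SRRT (-1.09), a cap-binding complex partner, fell in C4-2 as well, and ATM (0.62) and TUT7 (0.58), a uridylyltransferase that acts on histone messages in decay, rose. In DU145, 11 of 26 rose and 4 fell, beside 28.8% and 29.2% of all tested genes, with a median of 0.17. TUT7 (0.82), the cleavage factor subunit CSTF2 (0.65), HINFP, an activator of H4 genes (0.63), and UPF1, which acts in histone message decay (0.62), rose, and CCNE1 (-0.41), CCNE2 (-0.45) and LSM10 of the U7 particle (-0.31) fell. CSTF2 (-0.60) and UPF1 (-0.40) fell in C4-2, and their changes differed between the lines by 1.28 (SE 0.14, adjusted p = 1.63e-08) and 1.05 (SE 0.11, adjusted p = 4.73e-09).

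Histone genes outside the clusters gave 3 rises and 4 falls among 11 tested in DU145 (median -0.02), shares near those of all tested genes (28.8% and 29.2%). H2AJ (0.74) rose in DU145, and H2AX, the variant phosphorylated at DNA breaks, fell in DU145 (-0.60) and in C4-2 (-1.48). In C4-2, where 26.6% of all tested genes fell and 25.2% rose, 7 of 11 fell and 1 rose (median -0.19). H2AZ2 (-0.80) and H2AZ1 (-0.57), forms of the variant H2A.Z, were among those that fell.

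Histone chaperones, which escort histones to and from DNA, showed 16 falls and 3 rises among 23 tested in C4-2, beside 26.6% and 25.2% of all tested genes, with a median of -0.59. ASF1B (-2.01), HJURP (-1.59), the chaperone of the centromeric H3 variant, and NASP (-1.27) fell there, and ATRX (0.44) rose. In DU145, 8 of 24 fell, a share near the 29.2% of all tested genes. Only 3 rose, below the 28.8% of all tested genes, and the median was -0.0056. SUPT16H (-0.51), a subunit of the FACT complex, was among those that fell, and DAXX (0.50), a chaperone of H3.3, among those that rose.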

How the data were processed

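The authors deposited raw read counts per gene in 1 table per line. Per the file headers, the C4-2 counts were made by featureCounts 2.0.1 from read pairs and Ensembl 107 exons, without a strand option. How the DU145 reads were aligned and counted, and with what strand setting, is not given in the sources used here. Per the labels' protocols, the library kit is directional. The submitters' processing notes name hg38.

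Of 12 libraries, 11 were used, since the C4-2 DMSO replicate 3 column held only 0. The C4-2 comparison therefore had 3 against 2 libraries in place of 3 against 3. The tests used edgeR 4.0.16 under R 4.3.3 (filterByExpr by group, TMM scaling, quasi-likelihood F test, Benjamini-Hochberg adjustment at 0.05), each line alone, and jointly for the interaction over gene identifiers in both tables. The scripts were tested on simulated data. SE came from the fold change and its F statistic. CPM used library totals. Alternatives were DESeq2 1.42.0, other scalings and filters, a replicate block and libraries left out.

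Described with a value in every library were members tested in C4-2, up to 8 called per direction in DU145 with the largest changes and a mean of at least 1 CPM, the 6 highest per length and the 3 largest called interactions per direction, giving 18 members. HIST1H4C, HIST1H4K, HIST2H2AA4, HIST1H2AG and the head-to-head pairs were added after their values were seen. Members and lists were chosen with earlier results of these data known. Other lists are named by up to 4 called genes per line and direction, and the DU145 values of SLBP and CDK2 and the C4-2 values of CSTF2 and UPF1 were added after they were seen. Some genes that these rules gave are not reported here. Shared sequence was measured as 75-base windows of GENCODE 29 transcripts found in another member.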

Additional observations from a re-analysis of the deposited data

Results flagged for a closer look

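The palbociclib change differed between DU145 and C4-2 by the interaction test of edgeR for 4 members. HIST3H2A had a difference of 1.78 in log2, with a rise in DU145 and a fall in C4-2. HIST1H2AC had -2.69 and HIST1H2BD -1.67, each with a rise in C4-2 and no call in DU145. HIST1H4H had -2.02, resting in C4-2 on 5, 10 and 9 counts with palbociclib and 1 and 2 counts with DMSO. The lines lie in tables with different counting, so the line and the counting cannot be told apart.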

How the results depend on the processing

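The count of called members stayed within 1.5 times its value under every setting run. Leaving out 1 library gave 20 to 24 calls in DU145, 5 to 6 in C4-2 and 3 to 5 for the interaction, and DESeq2 gave 22, 4 and 3. With 1 DMSO library left in C4-2, that library is assumed to vary like the others. Without both DU145 libraries numbered 3, 21 members were called. Of the called members, 16 of 25 in DU145, 4 of 5 in C4-2 and 3 of 4 for the interaction were called in every setting. Without the most abundant member, the difference in summed CPM, palbociclib minus DMSO, was 66.9 in place of 83.3 in DU145 (HIST1H2BK left out) and 47.8 in place of 33.7 in C4-2 (HIST3H2A left out). Leaving out 1 library gave 74.3 to 91.4 in DU145 and 31.1 to 36.4 in C4-2. Values without a call that changed sign were HIST1H1C in C4-2, at -0.10 without DMSO replicate 1 (leave-one-out range -0.10 to 0.74), and HIST1H2BD in DU145, at 0.0048 without DMSO replicate 2 and 0.0003 without palbociclib replicate 3 (range -0.13 to 0.0048), and the cause was not tested. For the described members, 399 alternative values kept direction and side of the threshold, 22 fell short of it, 1 (the HIST1H2BN interaction) newly passed it and 3 changed sign.

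Replicate numbers were not used to pair the libraries in the main fits. Correlations of same-numbered deviations were 0.02, 0.036 and 0.128 in DU145 and 0.021 in C4-2, and not every library correlated best with its own number. The highest value in DU145, 0.128, was that of the libraries numbered 3. In C4-2 the values can differ only in sign by construction. Whether the numbers mark a pairing is therefore not settled. With the replicate block, 26 members were called in DU145, 5 in C4-2 and 4 for the interaction. Low C4-2 counts let only 6 of its 66 members be tested.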
